A study of Drosophila melanogaster with 15 samples.

Results

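Hypoxia was compared with normoxia in *w1118* females, the control genotype of the study, over 7 of its 15 RNA libraries. A library belongs to this comparison by its label: 3 are *w1118* in normoxia (numbered 2, 3 and 4) and 4 are *w1118* in hypoxia (numbered 1 to 4). *w1118* is a white-eyed laboratory strain that serves as a genetic background. The flies were mated adult females of about 7 days. They were kept in ambient air or placed for 16 h in a chamber flushed with 1% oxygen, and 5 whole flies were frozen and pooled for each library. The other 8 libraries, 4 in normoxia and 4 in hypoxia, come from *foxo* mutant females treated in the same way, which carry the null allele *foxoΔ94* and so lack the transcription factor FOXO. They enter here through the estimate of the spread, which all 15 libraries share, and through the test of whether *w1118* and the mutant differ. Values are in TPM, a length-corrected share of all transcripts of a library, summed for each gene.

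Adult flies survive many hours of low oxygen. In flies and mammals alike, a prolyl hydroxylase and the Vhl ligase hold the transcription factor HIF (Sima in the fly) low while oxygen is present, and HIF raises genes of glycolysis and of oxygen supply once oxygen falls. Digestion in the midgut and egg production in the ovary and fat body are the large secretory programs of a mated female, and each puts much of its RNA into a few genes for secreted proteins.

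The labels of the libraries could be checked in part. The *foxo* gene itself was at 18.3 to 39.9 TPM over the *w1118* libraries, and its mean in the mutant was 0.199 TPM in normoxia and 0.0459 TPM in hypoxia. Of 11 genes of male tissue (accessory gland, testis and dosage compensation), 10 stayed under 1 TPM in every *w1118* library, with a sum over the list of 0.477 to 3.68 TPM in normoxia and 0.561 to 3.11 TPM in hypoxia. The first principal component of the 7 libraries held 64.8% of the variance and separated all 3 normoxia libraries (−51.78 to −44.78) from all 4 hypoxia libraries (27.20 to 41.09). Normoxia libraries correlated with each other at 0.982 to 0.985, hypoxia libraries at 0.965 to 0.986 and libraries of the different conditions at 0.907 to 0.927 (Pearson's r over genes, on log2 values). The second component (18.3% of the variance) set hypoxia 1 and 3 (−42.26 and −15.91) opposite hypoxia 2 and 4 (28.38 and 24.40). In scaling and length slope, hypoxia 1 stood apart from the other hypoxia libraries. Its median-of-ratios scaling factor was 0.871 against 1.091 to 1.295 in hypoxia 2 to 4, and its slope of level on transcript length was −0.176 against −0.052 to 0.046. In normoxia the factors were 0.925 to 0.965 and the slopes −0.168 to −0.122. TPM keep no read number, so the depth behind each value is unknown, and the errors given are those between libraries.

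Over all genes, hypoxia shifted expression in both directions. Of 10288 genes tested, 1324 (12.9%) rose and 899 (8.74%) fell by over 1.5-fold with an adjusted p under 0.05 (limma, Benjamini-Hochberg adjustment). At the adjusted p alone 1666 genes (16.2%) were higher and 1012 (9.84%) lower, and the members of gene lists are counted below by that looser rule. On the log2(TPM + 1) scale the falls were the larger changes. Over 4-fold there were 264 falls and 146 rises, and over 16-fold 26 falls and 17 rises. That scale understates changes of low genes. From a mean under 1 TPM in normoxia to at least 10 TPM in hypoxia there were 32 called rises, and in the opposite sense 19 called falls. The rises over 16-fold include copies of *His3* with the same values in every library, which are not separate observations. The called rises took 4.74% of all transcripts in normoxia and 11% in hypoxia, whereas the called falls took 12.4% and 2.71%. Libraries of the conditions did not overlap for 1259 of the rises and 861 of the falls. These genes had already passed the test, so such separation is no further support, here or for the genes named below. Its share over all genes was not counted. The median of all genes stood at a log2 change of 0.22, and after median-of-ratios scaling at 0.013. That scaling gave 767 rises and 1253 falls, of which 750 and 895 are shared with the calls above, so that rises were 38% of its calls, against 59.6% above. The number of rises was 823 without normoxia 2, 861 without normoxia 4 and 2067 without hypoxia 1, the hypoxia library with the lowest scaling factor.

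**Figure D1:**
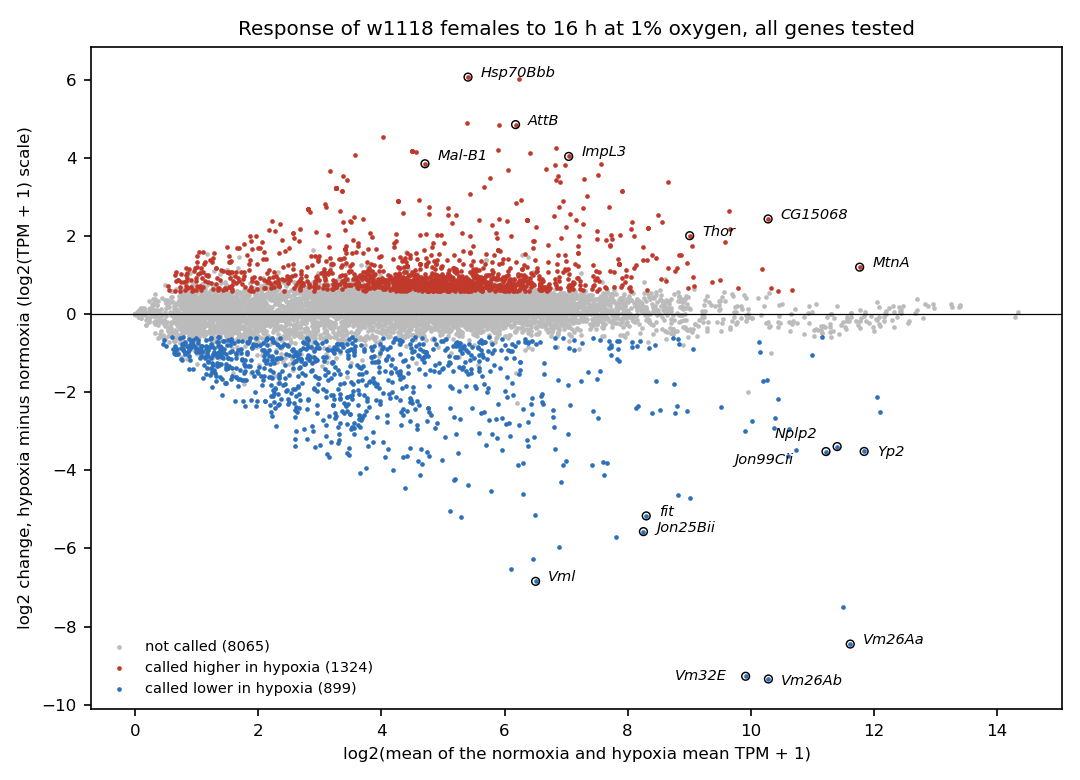
Log2 change between hypoxia and normoxia in *w1118* against mean level (log2 of TPM + 1) for the 10288 genes tested, with the 1324 called rises in red, the 899 called falls in blue and other genes in grey. Circles mark genes named in the text. On the log2(TPM + 1) scale the largest falls, such as *Vm26Ab* at −9.34, are larger than the largest rises, such as *Hsp70Bbb* at 6.07.

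The genes of protein digestion fell together. The Jonah proteases are serine proteases secreted by the midgut, and 15 of 16 fell, with a median log2 change of −3.58 beside 0.22 over all genes. *Jon74E* did not pass the test (log2 change −0.41, limma adjusted p = 0.147). *Jon99Cii* stood at 2572, 4269.9 and 6358 TPM in normoxia and 530.3, 421, 196 and 377 TPM in hypoxia, where the normoxia values are those of libraries 2, 3 and 4 and the hypoxia values those of libraries 1 to 4. It fell (log2 change −3.52, SE 0.318, limma adjusted p = 1.19e-06). Every hypoxia library lay far below the lowest normoxia library, although the normoxia libraries themselves spread widely. Its neighbour *Jon99Ciii* was at 1899.7, 3169.6 and 4349 TPM in normoxia and 393, 315, 138 and 282 TPM in hypoxia and fell alongside (log2 change −3.49, SE 0.312, limma adjusted p = 1.09e-06). The genes are neighbours on chromosome arm 3R, *Jon99Ciii* at 29922216 to 29923455 and *Jon99Cii* at 29923754 to 29924615 (dm6). The largest fall of the family was that of *Jon25Bii* on 2L (4952243 to 4953136), which measured 168, 711 and 922 TPM in normoxia and 6.24, 8.17, 8.99 and 14.8 TPM in hypoxia (log2 change −5.57, SE 0.424, limma adjusted p = 2.24e-07). Its normoxia 2 library was low for the group, and without it the log2 change was −6.32. *Jon25Biii*, from the same cluster, fell by 4.71 on the log2 scale, and by 5.30 without normoxia 2. *Jon25Bi* measured 253, 359.7 and 469 TPM in normoxia and 18.3, 19.8, 32.1 and 30.3 TPM in hypoxia (log2 change −3.79, SE 0.23, limma adjusted p = 2.79e-08), with no overlap between the conditions. Summed over the family, the Jonah proteases took 10869 to 20476 TPM in normoxia and 1079.6 to 1847 TPM in hypoxia.

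Trypsins followed the same course at a smaller size. Of 14 midgut trypsin genes 12 fell, with a median log2 change of −2.26. *Try29F* (log2 change 0.21, limma adjusted p = 0.533) and *CG30031* (log2 change −1.51, limma adjusted p = 0.0772) did not pass. *alphaTry*, the most abundant of them, stood at 2183, 2296 and 2368 TPM in normoxia and 509.5, 683, 451 and 403 TPM in hypoxia (log2 change −2.18, SE 0.188, limma adjusted p = 7.11e-07). The normoxia libraries were tight and the hypoxia libraries well below them. *thetaTry* was at 125, 137 and 177 TPM in normoxia and 14.7, 12.6, 6.74 and 6.06 TPM in hypoxia (log2 change −3.81, SE 0.313, limma adjusted p = 4.41e-07). *betaTry* fell by 2.35 on the log2 scale. Several of these genes lie in 1 cluster on 2R and are alike in sequence, so the split of reads among them is uncertain. Of 5 lysozymes, which digest bacterial cell walls, 4 fell. *LysD* measured 192, 59.7 and 447 TPM in normoxia and 9.86, 11.8, 12.0 and 10.2 TPM in hypoxia (log2 change −3.87, SE 0.425, limma adjusted p = 8.39e-06), and its log2 change was −4.62 without normoxia 3 and −3.18 without normoxia 4. *LysX*, the remaining one, stood at 121, 59.3 and 112 TPM in normoxia and 70.3, 159, 74.9 and 76.7 TPM in hypoxia with overlapping conditions (adjusted p = 0.918 with limma). The catalytic amidases *PGRP-SC1a* and *PGRP-SC2*, which cleave peptidoglycan in the gut, fell as well. *PGRP-SC2* was at 176, 87.3 and 132 TPM in normoxia and 14.5, 16.4, 22.6 and 14.6 TPM in hypoxia (log2 change −2.85, SE 0.282, limma adjusted p = 3.09e-06), and *PGRP-SC1a* fell by 3.43 on the log2 scale. *mag*, the lipase magro of the midgut, measured 34.4, 43.2 and 61.5 TPM in normoxia and 2.91, 3.04, 1.35 and 1.91 TPM in hypoxia (log2 change −3.84, SE 0.255, limma adjusted p = 6.17e-08). All of its hypoxia libraries lay far below the lowest normoxia library. In whole flies, fewer cells of a type and less RNA per cell cannot be told apart, here and in the results that follow.

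Enzymes of sugar digestion did not follow the proteases. Of 13 maltases and amylases 7 rose and 2 fell, with a median log2 change of 1.99. Without normoxia 4 the number of rises was 4. *Mal-B1*, a maltase, stood at 2.63, 1.63 and 2.23 TPM in normoxia and 37.9, 71.0, 23.4 and 60.0 TPM in hypoxia (log2 change 3.85, SE 0.328, limma adjusted p = 6.43e-07). *Mal-B2*, its neighbour on 2L, was at 54.8, 45.0 and 49.2 TPM in normoxia and 249, 264, 169 and 353 TPM in hypoxia (log2 change 2.32, SE 0.205, limma adjusted p = 1.00e-06). Both were higher in every hypoxia library than in any normoxia library. *tobi*, a glucosidase known as a target of brain insulin and of adipokinetic hormone, measured 12.6, 8.0 and 4.27 TPM in normoxia and 87.8, 253, 137 and 162 TPM in hypoxia (log2 change 4.12, SE 0.494, limma adjusted p = 2.04e-05). The amylases, which split starch, went the other way. *Amy-d* stood at 284, 321 and 329 TPM in normoxia and 168, 118, 139 and 134 TPM in hypoxia (log2 change −1.16, SE 0.229, limma adjusted p = 0.00165), and *Amy-p* was at 284, 259 and 253 TPM in normoxia and 175, 118, 148 and 144 TPM in hypoxia (log2 change −0.87, SE 0.216, limma adjusted p = 0.00826). These copies are nearly identical, so only their common fall is certain. In *foxo* mutants the 13 genes had a median log2 change of −0.82, and *Mal-B1*, *Mal-B2* and *tobi* each rose more in *w1118* (differences in log2 change of 3.43, 2.76 and 3.32, limma adjusted p = 0.000615, 8.97e-05 and 0.0137).

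**Figure D2:**
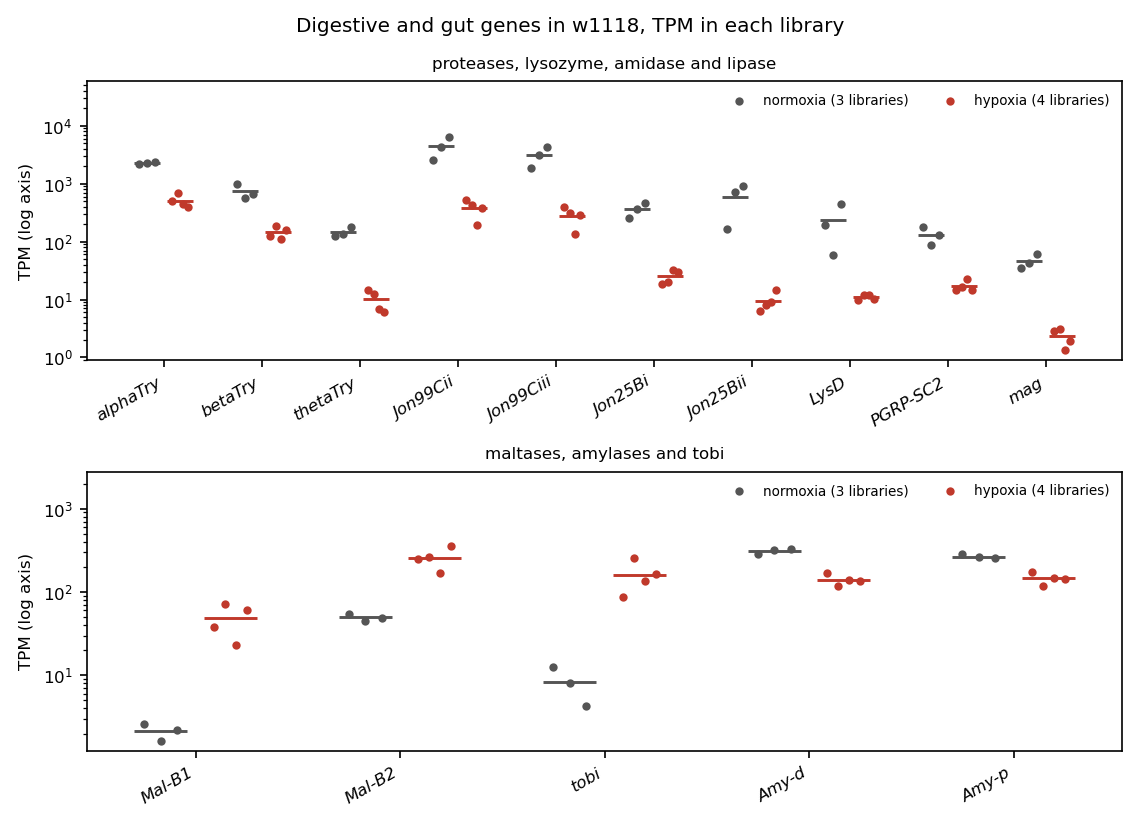
TPM of digestive genes in each *w1118* library on a log axis, normoxia in grey (3 libraries) and hypoxia in red (4 libraries), with bars at the group means. Genes were picked with their values in view, so separation of the conditions is no further support. The upper panel holds proteases, *LysD*, *PGRP-SC2* and *mag*, all lower in each hypoxia library than in any normoxia library. The lower panel holds *Mal-B1*, *Mal-B2* and *tobi*, which are higher in hypoxia, and both amylases, which are lower.

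The inner layer of the eggshell showed the largest falls of the whole comparison. All 8 vitelline membrane genes fell, with a median log2 change of −7.17, and their summed level was 14241 to 23402 TPM in normoxia and 21.7 to 132 TPM in hypoxia. Follicle cells of mid-stage egg chambers make these proteins. *Vm26Ab* on 2L (5957004 to 5957639) measured 1949, 2060.4 and 3481 TPM in normoxia and 3.12, 3.96, 0.994 and 3.66 TPM in hypoxia (log2 change −9.34, SE 0.365, limma adjusted p = 2.21e-10). *Vm34Ca* stood at 5067, 4727 and 7399 TPM in normoxia and 36.1, 37.8, 9.05 and 65.0 TPM in hypoxia (log2 change −7.49, SE 0.962, limma adjusted p = 3.85e-05). *Vm26Aa* was at 5002, 5453 and 8327 TPM in normoxia and 66.8, 14.9, 5.25 and 12.8 TPM in hypoxia (log2 change −8.45, SE 0.98, limma adjusted p = 1.43e-05). Hypoxia 1 held several times more of *Vm26Aa* than the other hypoxia libraries did, and the log2 change was −9.10 without it. *Vm32E* was of the same kind, with 13.1, 1.87, 0.202 and 0.651 TPM in hypoxia after 1458, 1591 and 2737 TPM in normoxia, a log2 change of −9.27, or −10.02 without hypoxia 1. *Vml* and *psd*, which encode further vitelline membrane proteins, fell below 1 TPM in every hypoxia library, from 138, 137 and 262 TPM and from 99.5, 111 and 195 TPM. *dec*, the defective chorion gene of the eggshell, fell by 5.71 on the log2 scale and *Vm26Ac* fell by 5.96.

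The outer eggshell and the yolk fell less, and most germline markers did not pass the test. Of 9 chorion genes, which the follicle cells express last, 5 fell and the other 4 did not pass, with a median log2 change of −2.67. *Cp36* measured 3726, 2408 and 2149 TPM in normoxia and 166, 355, 597 and 418 TPM in hypoxia (log2 change −2.94, SE 0.629, limma adjusted p = 0.003), and *Cp38* stood at 3945, 2539.8 and 2127 TPM in normoxia and 101, 201, 419 and 283 TPM in hypoxia (log2 change −3.64, SE 0.671, limma adjusted p = 0.000977). *Cp7Fb* fell by 5.15 on the log2 scale. *Cp15* was at 10863, 3889.6 and 5452 TPM in normoxia and 5168, 5326, 5211 and 6262 TPM in hypoxia, where the conditions overlap (log2 change −0.16, SE 1.313, limma adjusted p = 0.941). Its SE rests on the spread of all 15 libraries, and in normoxic *foxo* mutants *Cp15* had a mean of 2466 TPM and an SD of 2652 TPM. The yolk proteins are made in fat body and follicle cells. *Yp1* measured 7636, 5066 and 9512 TPM in normoxia and 779.6, 2010.2, 909 and 1791 TPM in hypoxia (log2 change −2.50, SE 0.283, limma adjusted p = 1.12e-05). *Yp2* stood at 6682, 4617 and 8926 TPM in normoxia and 340.1, 811, 453 and 829.6 TPM in hypoxia (log2 change −3.52, SE 0.292, limma adjusted p = 4.83e-07). *Yp3* was at 6927, 5036 and 8819 TPM in normoxia and 1147, 1958, 1404 and 1872 TPM in hypoxia (log2 change −2.11, SE 0.208, limma adjusted p = 2.94e-06). None of the 3 overlapped between the conditions, and all kept a high level in every hypoxia library. The yolk receptor gene *yl* did not pass the test (log2 change 0.21, limma adjusted p = 0.528). *fit*, which encodes a female-specific satiety peptide of the fat body, measured 569.8, 529.5 and 739 TPM in normoxia and 21.0, 12.6, 23.5 and 10.2 TPM in hypoxia (log2 change −5.17, SE 0.526, limma adjusted p = 3.81e-06). Of 14 genes of the female germline 1, *nos*, rose (log2 change 0.99, limma adjusted p = 0.00429) and 13 did not pass, with a median log2 change of 0.13. The share of rises was 7.14%, beside 16.2% over all genes. *osk*, the maternal RNA that sets up the germ plasm, stood at 241, 278 and 293 TPM in normoxia and 147, 328, 228 and 352 TPM in hypoxia with full overlap (log2 change −0.11, SE 0.273, adjusted p = 0.785), and passed only with the transcript-length slope as a covariate (−0.62, limma adjusted p = 0.00254). With that covariate 6 germline genes fell and 1 rose.

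**Figure D3:**
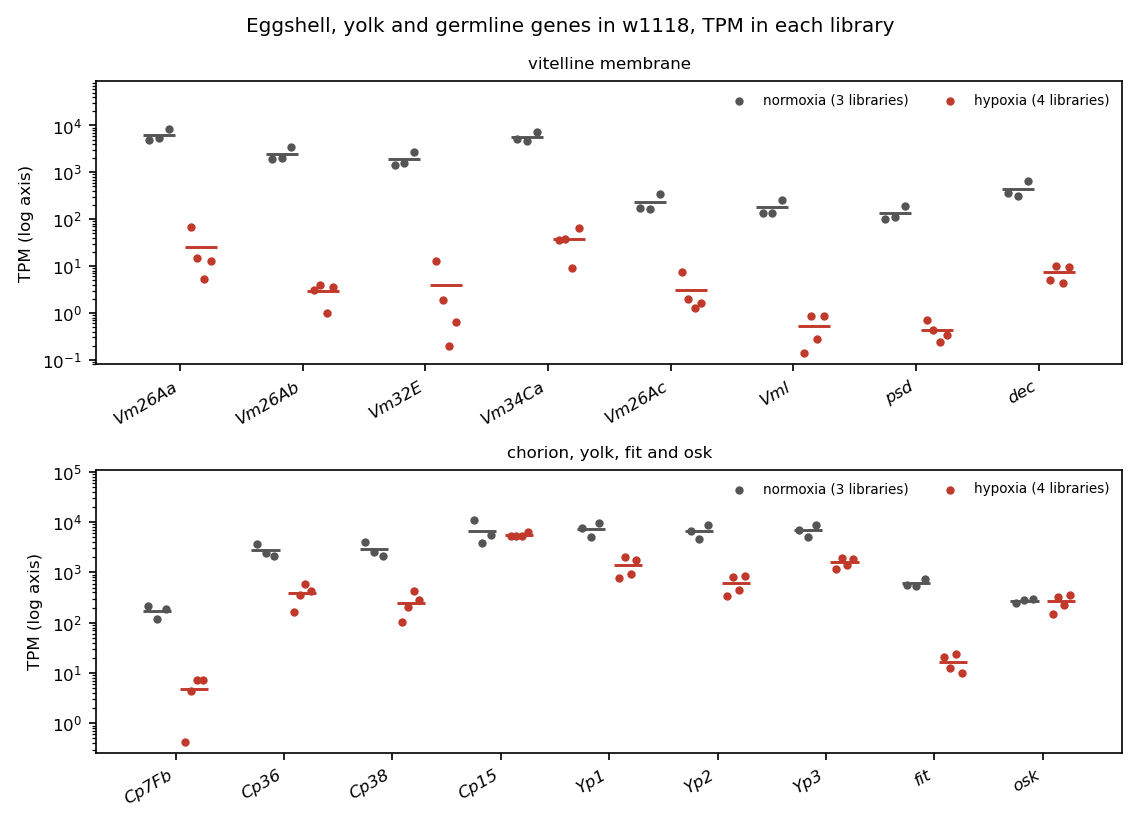
TPM of eggshell, yolk and germline genes in each *w1118* library on a log axis, normoxia in grey (3 libraries) and hypoxia in red (4 libraries), with bars at the group means. Genes were picked with their values in view, so separation of the conditions is no further support. The upper panel holds the 8 vitelline membrane genes. In the lower panel *Cp7Fb*, *Cp36*, *Cp38*, the 3 yolk proteins and *fit* are lower in each hypoxia library than in any normoxia library, whereas *Cp15* and *osk* overlap.

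Most genes in the list of oxygen sensing and tracheal FGF rose. Of 7 tested, 5 rose, with a median log2 change of 1.16, and not all of these sense oxygen. Without normoxia 3 the count was 3. With the transcript-length slope as a covariate 4 rose and 1 fell. *bnl*, the FGF ligand that draws out tracheal branches, was at 1.24, 0.747 and 1.12 TPM in normoxia and 7.74, 23.0, 7.27 and 18.6 TPM in hypoxia (log2 change 2.75, SE 0.338, limma adjusted p = 2.63e-05), and hypoxia 2 and 4 were above hypoxia 1 and 3. *Vhl* measured 11.1, 13.4 and 11.8 TPM in normoxia and 37.5, 43.3, 38.9 and 49.2 TPM in hypoxia (log2 change 1.72, SE 0.151, limma adjusted p = 9.37e-07). *Hph*, the HIF prolyl hydroxylase, stood at 47.1, 46.8 and 46.3 TPM in normoxia and 76.9, 127, 98.0 and 128 TPM in hypoxia (log2 change 1.16, SE 0.203, limma adjusted p = 0.000634). *h*, the repressor hairy, rose (log2 change 1.17, limma adjusted p = 0.0117), but not without normoxia 3 (adjusted p = 0.0549, limma). HIF itself is set by protein stability, and its subunit genes *sima* (log2 change 0.32, limma adjusted p = 0.527) and *tgo* (log2 change 0.32, limma adjusted p = 0.483) did not pass. Of 14 glycolysis genes 6 rose and 1 fell (42.9% and 7.14%, beside 16.2% and 9.84% over all genes). Their median log2 change was 0.29, and 3 rose after median-of-ratios scaling. The single fall, that of *Hex-C* (log2 change −0.73, limma adjusted p = 0.03), did not pass without normoxia 2, normoxia 4, hypoxia 3 or hypoxia 4. *ImpL3*, the lactate dehydrogenase, was at 17.1, 14 and 11.5 TPM in normoxia and 233, 274, 206 and 277 TPM in hypoxia (log2 change 4.04, SE 0.245, limma adjusted p = 2.79e-08). It was far above the other glycolysis genes in change. *Gapdh2* measured 1020.3, 1167 and 1144 TPM in normoxia and 1566, 1515, 1895 and 1703 TPM in hypoxia (log2 change 0.59, SE 0.12, limma adjusted p = 0.00216), and *Eno* rose by 0.49. Median-of-ratios scaling took both to an adjusted p over 0.05 (0.0988 and 0.186).

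Genes of glucose synthesis rose by more than those of glycolysis other than *ImpL3*. Of 4 tested, 3 rose, with a median log2 change of 1.32. *CG10924*, the phosphoenolpyruvate carboxykinase Pepck2, stood at 20.2, 8.52 and 22.7 TPM in normoxia and 118, 144, 70.2 and 172 TPM in hypoxia (log2 change 2.84, SE 0.324, limma adjusted p = 1.19e-05). *fbp*, fructose bisphosphatase, was at 101, 55.3 and 80.2 TPM in normoxia and 181, 191, 102 and 192 TPM in hypoxia (log2 change 1.07, SE 0.23, limma adjusted p = 0.00315). In *foxo* mutants their log2 changes were 0.14 and −0.46, and the differences from *w1118* were 2.70 (adjusted p = 0.00334) and 1.53 (adjusted p = 0.0147, limma). The third rise was that of *Pepck*, the other phosphoenolpyruvate carboxykinase gene (log2 change 1.57, limma adjusted p = 0.0262), which did not pass without normoxia 3, hypoxia 2 or hypoxia 4 or with the transcript-length covariate. It changed by 1.27 in the mutant, and the difference of 0.30 did not pass (adjusted p = 0.843, limma). Among 13 genes of fatty acid synthesis 5 rose and 1 fell (38.5% and 7.69%, beside 16.2% and 9.84% over all genes), with a median of 0.47. The number of rises was 3 without any one of the libraries normoxia 2, 3 or 4 or hypoxia 2, 3 or 4, and the number of falls was 2 without hypoxia 4. *Desat1*, the main acyl desaturase, measured 491, 481 and 538 TPM in normoxia and 925, 1036, 641 and 1159 TPM in hypoxia (log2 change 0.87, SE 0.18, limma adjusted p = 0.0024). *AcCoAS*, acetyl-CoA synthase, rose by 0.76 on the log2 scale, and after median-of-ratios scaling its adjusted p was 0.114. Of 8 genes of hemolymph lipoproteins 1, *apolpp*, fell (12.5%, beside 9.84% over all genes), and 3 fell after median-of-ratios scaling. *apolpp*, whose protein carries lipid in the hemolymph, stood at 95.8, 82.5 and 155 TPM in normoxia and 8.09, 33.5, 9.79 and 15.4 TPM in hypoxia (log2 change −2.82, SE 0.347, limma adjusted p = 2.63e-05), with hypoxia 2 above the other hypoxia libraries.

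Subunits of the later respiratory complexes lay slightly below, whereas most of those of complex I did not pass. Of 34 nuclear genes of complex I 4 fell (11.8%, beside 9.84% over all genes), with a median log2 change of −0.02. With the transcript-length slope as a covariate 9 rose and 9 fell, after median-of-ratios scaling 9 fell, and the falls numbered 1 without normoxia 2 or normoxia 4 and 2 without hypoxia 4. Of 36 nuclear genes of complexes III to V 16 fell (44.4%, beside 9.84% over all genes) and 20 did not pass, with a median log2 change of −0.22. Their summed level was 19811 to 20037 TPM in normoxia and 16149 to 17313 TPM in hypoxia. After median-of-ratios scaling their median was −0.45, with 15 falls. *COX8*, a subunit of cytochrome oxidase, was at 588, 536 and 595 TPM in normoxia and 299.5, 397, 306 and 352 TPM in hypoxia (log2 change −0.76, SE 0.143, limma adjusted p = 0.0011). The count of falls was 5 without normoxia 2 and 5 without normoxia 4, and without hypoxia 3 a single member rose. The changes of cytosolic ribosomal protein genes were small. Of 87 tested, 18 fell and 1 rose (20.7% and 1.15%, beside 9.84% and 16.2% over all genes), with a median of −0.12. The median of all genes was 0.22, and 8 of the 87 lay above it. After median-of-ratios scaling the median of the list was −0.36, with 23 falls and 0 rises. The falls numbered 1 without normoxia 2, 3 without normoxia 4, 4 without hypoxia 3, 8 without hypoxia 4, 10 without hypoxia 1 and 11 without normoxia 3, with 12 in the fit with replicate numbers as a block. The rise was lost without normoxia 2, normoxia 4 or hypoxia 3. With the transcript-length slope as a covariate 26 rose and 28 fell. *RpL12*, a protein of the ribosomal stalk base, measured 3329, 2811 and 2946 TPM in normoxia and 1826, 2391, 1855 and 2099 TPM in hypoxia (log2 change −0.57, SE 0.127, limma adjusted p = 0.00387).

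The inducible Hsp70 and Hsp68 chaperones had the highest median of the lists. All 7 inducible Hsp70 and Hsp68 genes rose, with a median log2 change of 4.53 and a summed level of 18.7 to 21.0 TPM in normoxia against 514 to 682 TPM in hypoxia. *Hsp70Bb* stood at 1.47, 1.46 and 0.954 TPM in normoxia and 142, 179, 119.8 and 150.1 TPM in hypoxia (log2 change 6.01, SE 0.212, limma adjusted p = 7.42e-11), and *Hsp70Bbb* at 0.00165, 0.182 and 0.598 TPM in normoxia and 90.9, 91.7, 76.1 and 71.6 TPM in hypoxia (log2 change 6.07, SE 0.203, limma adjusted p = 6.48e-11). The Hsp70 copies on 3R share reads, so the sum is more certain than the single values. *Hsp68*, which is distinct in sequence, was at 3.18, 2.33 and 3.67 TPM in normoxia and 134, 131, 93.4 and 102 TPM in hypoxia (log2 change 4.83, SE 0.2, limma adjusted p = 3.87e-10). The hypoxia libraries were close to each other for all of these. Of 10 small heat shock genes 6 rose, with a median of 0.59. Without normoxia 2 the count was 3, and after median-of-ratios scaling it was 3. *Hsp23* measured 16.4, 21.9 and 14.6 TPM in normoxia and 245, 202, 229.9 and 175 TPM in hypoxia (log2 change 3.53, SE 0.223, limma adjusted p = 3.69e-08), and *Hsp22*, of the mitochondria, stood at 26.4, 26.9 and 30.7 TPM in normoxia and 191, 208, 209.8 and 261 TPM in hypoxia (log2 change 2.90, SE 0.207, limma adjusted p = 1.29e-07). Of 11 other chaperones 4 rose (36.4%, beside 16.2% over all genes). They include *stv*, a cochaperone of the BAG family, at 12.0, 8.73 and 11.0 TPM in normoxia and 41.0, 64.4, 33.5 and 49.3 TPM in hypoxia (log2 change 2.02, SE 0.224, limma adjusted p = 8.96e-06), and *DnaJ-1*, an Hsp40, with a log2 change of 1.16. The abundant constitutive chaperones did not pass. *Hsp83* was at 1030.3, 1131 and 1109 TPM in normoxia and 932, 1320.5, 1406 and 1463 TPM in hypoxia (log2 change 0.21, SE 0.197, adjusted p = 0.444) and *Hsc70-4* at 1925, 2049 and 2020.0 TPM in normoxia and 1578, 2300.4, 2100.2 and 2411 TPM in hypoxia (0.05, SE 0.169, adjusted p = 0.844). In the list of the unfolded protein and integrated stress response 4 of 16 genes rose and 2 fell (median log2 change 0.16). These are 25% and 12.5%, beside 16.2% and 9.84% over all genes. After median-of-ratios scaling the median was −0.06, with 3 rises and 4 falls. *Ero1L*, the oxidase that makes disulfide bonds, measured 34.0, 32.7 and 34.7 TPM in normoxia and 65.1, 105, 69.8 and 99.8 TPM in hypoxia (log2 change 1.27, SE 0.19, limma adjusted p = 0.000148). *Xbp1*, a factor of the unfolded protein response, rose by 0.75 on the log2 scale, and after median-of-ratios scaling its adjusted p was 0.0851. The falls were those of resident folding proteins, *Calr*, the chaperone calreticulin (log2 change −0.63, limma adjusted p = 0.018), and *Pdi*, a protein disulfide isomerase (log2 change −0.45, limma adjusted p = 0.0131). *Calr* did not pass without normoxia 2, without normoxia 4 or with replicate numbers as a block (adjusted p = 0.0615, 0.0803 and 0.0555, limma), and *Pdi* did not without normoxia 4 (0.0826).

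Detoxification genes changed member by member. Of 34 glutathione S-transferases 10 rose and 3 fell (29.4% and 8.82%, beside 16.2% and 9.84% over all genes). Their median log2 change was 0.19, which became −0.04 after median-of-ratios scaling with 6 rises and 5 falls. *GstD2* stood at 10.6, 5.23 and 10.8 TPM in normoxia and 70.3, 85.7, 109 and 97.2 TPM in hypoxia (log2 change 3.25, SE 0.237, limma adjusted p = 1.58e-07). *GstE8* was at 20.2, 35.1 and 21.1 TPM in normoxia and 106, 60.1, 75.9 and 62.2 TPM in hypoxia (log2 change 1.55, SE 0.226, limma adjusted p = 0.000126). Among 17 genes of oxidant defense 4 rose (23.5%, beside 16.2% over all genes), with a median of 0.09. After median-of-ratios scaling the median was −0.14, with 2 rises and 3 falls. Without normoxia 2 or normoxia 4 the rises numbered 2. The peroxiredoxin copies *Prx2540-1* and *Prx2540-2* stood out. *Prx2540-1* measured 34.1, 17.3 and 29.7 TPM in normoxia and 271, 311, 224 and 547 TPM in hypoxia (log2 change 3.57, SE 0.291, limma adjusted p = 4.23e-07), and *Prx2540-2* stood at 30.7, 19.2 and 23.7 TPM in normoxia and 253, 348, 191 and 349 TPM in hypoxia (log2 change 3.47, SE 0.237, limma adjusted p = 8.18e-08). They are near-identical neighbours on 2R, so their split is uncertain. *MtnA*, the main metallothionein, was at 2558, 1777 and 1952 TPM in normoxia and 6027, 5566, 3282 and 4693 TPM in hypoxia (log2 change 1.20, SE 0.201, limma adjusted p = 0.000424), the largest gain in TPM of any gene (2800 TPM between the means). *Tsf1*, a transferrin that binds iron in the hemolymph, measured 66.3, 49.4 and 61.7 TPM in normoxia and 228, 201, 84.9 and 409 TPM in hypoxia (log2 change 1.75, SE 0.463, limma adjusted p = 0.0118), with a spread among the hypoxia libraries far wider than in normoxia.

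Immune peptides rose, with exceptions. Of 14 antimicrobial peptide genes 10 rose, with a median log2 change of 2.06. *AttB* stood at 6.10, 2.41 and 2.99 TPM in normoxia and 193, 143, 146 and 74.3 TPM in hypoxia (log2 change 4.85, SE 0.295, limma adjusted p = 2.79e-08), and *AttA* was at 1.74, 0.922 and 1.61 TPM in normoxia and 57.3, 40.8, 49.6 and 26.6 TPM in hypoxia (log2 change 4.16, SE 0.294, limma adjusted p = 1.21e-07). The pair shares reads. *CecA1* (log2 change 2.92, limma adjusted p = 1.38e-06) and *CecA2* (log2 change 2.07, limma adjusted p = 0.000433), which encode cecropins, and *Dro*, drosocin (log2 change 3.82, limma adjusted p = 1.33e-06), rose as well. *DptA*, diptericin, measured 7.63, 7.39 and 6.68 TPM in normoxia and 148, 565, 92.9 and 73.6 TPM in hypoxia (log2 change 4.24, SE 0.508, limma adjusted p = 1.99e-05). Hypoxia 2 was far above the others, and the log2 change was 3.62 without it. The most abundant peptides in normoxia did not pass. *Drs*, drosomycin, a target of the Toll pathway, stood at 1020.1, 956 and 1077 TPM in normoxia and 947, 1332, 765 and 932 TPM in hypoxia (log2 change −0.06, SE 0.185, adjusted p = 0.831), and *Mtk*, metchnikowin, at 759, 372 and 687 TPM in normoxia and 881, 1399.8, 847 and 524 TPM in hypoxia (0.57, SE 0.397, adjusted p = 0.303). *Mtk* started from a mean of 56.7 TPM in normoxic *foxo* mutants, and there it rose by 3.45 on the log2 scale (difference −2.88, adjusted p = 0.00853, limma). Of 30 genes of peptidoglycan recognition and NF-kappaB signaling 1 rose and 5 fell (3.33% and 16.7%, beside 16.2% and 9.84% over all genes). The rises numbered 7 without hypoxia 1. *Rel*, the NF-kappaB factor Relish, did not pass (log2 change 0.64, limma adjusted p = 0.0832), and passed with replicate numbers as a block (adjusted p = 0.00584, limma) and without hypoxia 1. Of 9 Turandot and JAK-STAT genes 6 rose and 1 fell, with a median of 0.98, and 3 rose without normoxia 2. *Socs36E*, a feedback inhibitor of JAK-STAT signaling, was at 7.00, 5.00 and 6.32 TPM in normoxia and 51.3, 53.5, 35.3 and 46.6 TPM in hypoxia (log2 change 2.74, SE 0.204, limma adjusted p = 1.95e-07). *TotM*, a secreted stress peptide, measured 4.57, 14.2 and 5.51 TPM in normoxia and 110.4, 218, 40.7 and 125 TPM in hypoxia (log2 change 3.70, SE 0.514, limma adjusted p = 7.69e-05).

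**Figure D4:**
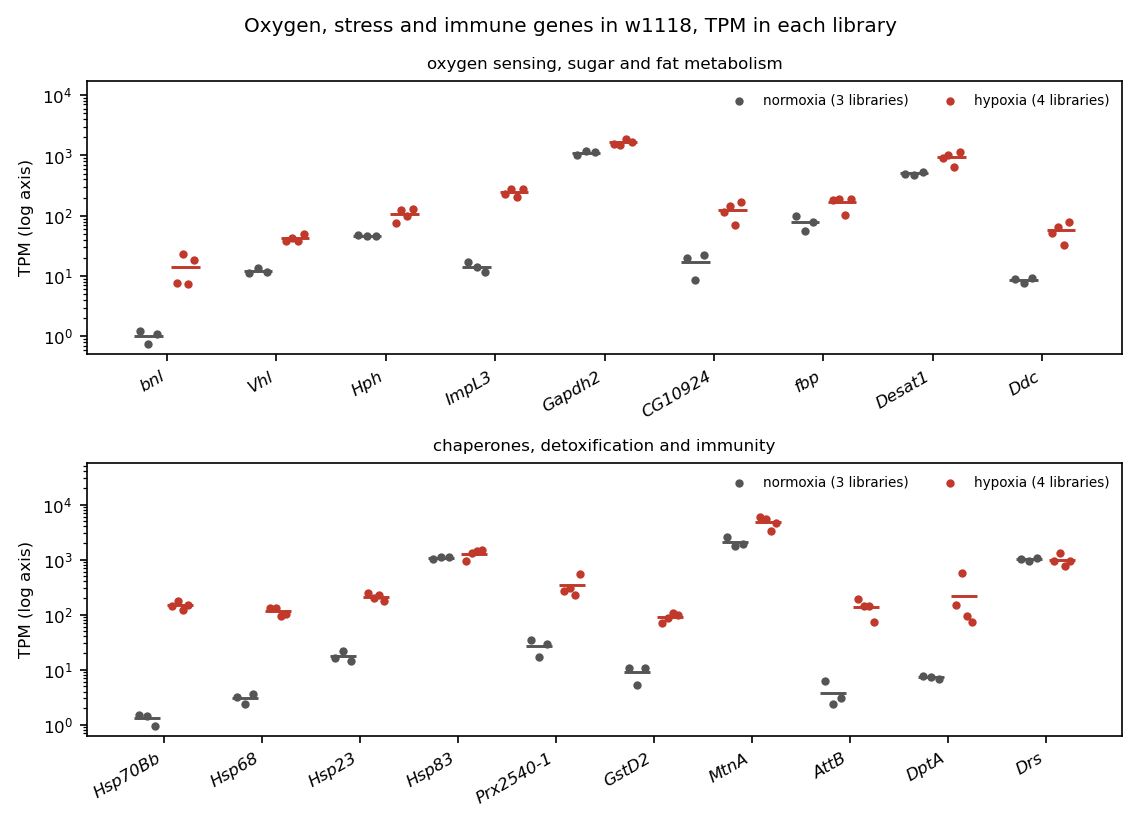
TPM of oxygen, metabolic, stress and immune genes in each *w1118* library on a log axis, normoxia in grey (3 libraries) and hypoxia in red (4 libraries), with bars at the group means. Genes were picked with their values in view, so separation of the conditions is no further support. In the upper panel every gene is higher in each hypoxia library than in any normoxia library. In the lower panel *Hsp83* and *Drs* overlap between the conditions.

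Of 17 insulin signaling genes 3 rose (17.6%, beside 16.2% over all genes) and 1 fell, with a median log2 change of 0.45. The rises numbered 8 without hypoxia 1 and 6 with replicate numbers as a block. *InR*, the insulin receptor, did not pass (log2 change 0.73, limma adjusted p = 0.111), and passed with that block (adjusted p = 0.0158, limma) and without hypoxia 1. It measured 3.67, 12.8, 5.31 and 11.9 TPM in hypoxia, with hypoxia 2 and 4 above hypoxia 1 and 3. *Thor*, the translation inhibitor 4E-BP, stood at 270.4, 130.1 and 212 TPM in normoxia and 573, 1108, 599.9 and 1017 TPM in hypoxia (log2 change 2.01, SE 0.29, limma adjusted p = 0.000111). *Ilp6*, the insulin-like peptide of the fat body, was at 8.48, 5.56 and 6.67 TPM in normoxia and 11.2, 28.7, 12.7 and 25.8 TPM in hypoxia (log2 change 1.29, SE 0.28, limma adjusted p = 0.00333). Of 20 autophagy genes 9 rose, with a median log2 change of 0.54, or 0.32 after median-of-ratios scaling. In the mutant the median was 0.00 before that scaling. Of the 20 only *Atg18b* changed differently in *w1118* and the mutant at an adjusted p under 0.05 (difference 1.22, limma adjusted p = 0.0444). That result was lost in 14 of 23 alternatives. Whether the list as a whole depends on the genotype was not tested. The number of rises was 3 without normoxia 2, 5 without normoxia 3, 3 without normoxia 4 and 5 without hypoxia 4. *Atg18b* measured 10.2, 8.03 and 9.63 TPM in normoxia and 16.2, 26.3, 18.0 and 24.7 TPM in hypoxia (log2 change 1.09, SE 0.223, limma adjusted p = 0.00209), and *Atg18a* rose by 0.69. Of 7 cell death regulators 5 rose, with a median of 0.64, and the count was 2 without normoxia 2 or normoxia 4 and 3 without hypoxia 4. *Diap1*, an inhibitor of caspases, rose (log2 change 1.15, limma adjusted p = 1.19e-05). *Drice*, an effector caspase, stood at 24.3, 34.2 and 31.0 TPM in normoxia and 45.2, 49.0, 63.3 and 59.7 TPM in hypoxia (log2 change 0.84, SE 0.203, limma adjusted p = 0.00658). Of 18 cell cycle regulators 4 rose (22.2%, beside 16.2% over all genes), with 2 to 7 without single libraries. *aurB*, the Aurora B kinase of mitosis, was at 41.4, 46.2 and 41.0 TPM in normoxia and 93.2, 75.4, 100.3 and 82.0 TPM in hypoxia (log2 change 1.01, SE 0.188, limma adjusted p = 0.00104). Of 10 clock genes 4 rose (40%, beside 16.2% over all genes), with a median of 0.37. The count was 1 without normoxia 4 or hypoxia 4, and 2 without normoxia 2, hypoxia 2 or hypoxia 3. *vri*, a clock repressor, measured 12.5, 10.2 and 11.9 TPM in normoxia and 19.0, 33.5, 20.2 and 29.6 TPM in hypoxia (log2 change 1.05, SE 0.206, limma adjusted p = 0.00157). Of 11 genes of tyrosine breakdown and dopamine synthesis 3 rose and 1 fell (27.3% and 9.09%, beside 16.2% and 9.84% over all genes). The fall was lost without normoxia 4. *Ddc*, dopa decarboxylase, the enzyme of the last step to dopamine, stood at 8.96, 7.75 and 9.39 TPM in normoxia and 52.8, 65.6, 33.3 and 77.5 TPM in hypoxia (log2 change 2.53, SE 0.238, limma adjusted p = 1.85e-06). In *foxo* mutants *Ddc* went the other way, with a log2 change of −0.92 (adjusted p = 0.00633), and the difference of 3.44 passed (adjusted p = 4.37e-05, limma).

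Among markers of tissues other than gut and ovary, muscle genes were lower in part. Of 20 contractile protein genes 5 fell (25%, beside 9.84% over all genes), with a median log2 change of −0.47, and after median-of-ratios scaling 15 fell. Without hypoxia 2 the count was 12, and with the transcript-length covariate it was 13. *TpnC47D*, a troponin C, was at 13.5, 14.9 and 14.8 TPM in normoxia and 2.36, 4.25, 2.85 and 3.00 TPM in hypoxia (log2 change −1.92, SE 0.191, limma adjusted p = 3.19e-06). *Mlc1*, a myosin light chain, measured 83.8, 70.6 and 80.9 TPM in normoxia and 34.5, 54.7, 31.7 and 47.4 TPM in hypoxia (log2 change −0.91, SE 0.19, limma adjusted p = 0.00245). Of 13 neuronal genes 0 passed in either direction with limma (median 0.29), with 0 in either direction at an unadjusted p under 0.05, 3 higher with replicate numbers as a block and 3 higher without hypoxia 1. *ninaE*, the rhodopsin of the outer photoreceptors, stood at 602, 633 and 571 TPM in normoxia and 627, 810.0, 622 and 784 TPM in hypoxia (log2 change 0.23, SE 0.121, adjusted p = 0.17). Of 28 odorant-binding protein genes 2 rose and 6 fell (7.14% and 21.4%, beside 16.2% and 9.84% over all genes). *Obp19c* was at 279, 177 and 234 TPM in normoxia and 14.2, 7.89, 8.61 and 13.0 TPM in hypoxia (log2 change −4.29, SE 0.634, limma adjusted p = 0.000141). Of 25 cuticle protein genes 3 rose and 7 fell (12% and 28%, beside 16.2% and 9.84% over all genes). Their falls numbered 2 without normoxia 4 and 4 without hypoxia 3. *Cpr49Ab* measured 114, 164 and 199 TPM in normoxia and 25.9, 15.7, 17.0 and 10.7 TPM in hypoxia (log2 change −3.15, SE 0.397, limma adjusted p = 3.16e-05), and *Cpr47Eg* rose by 2.40 from under 1 TPM in every normoxia library.

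**Figure D5:**
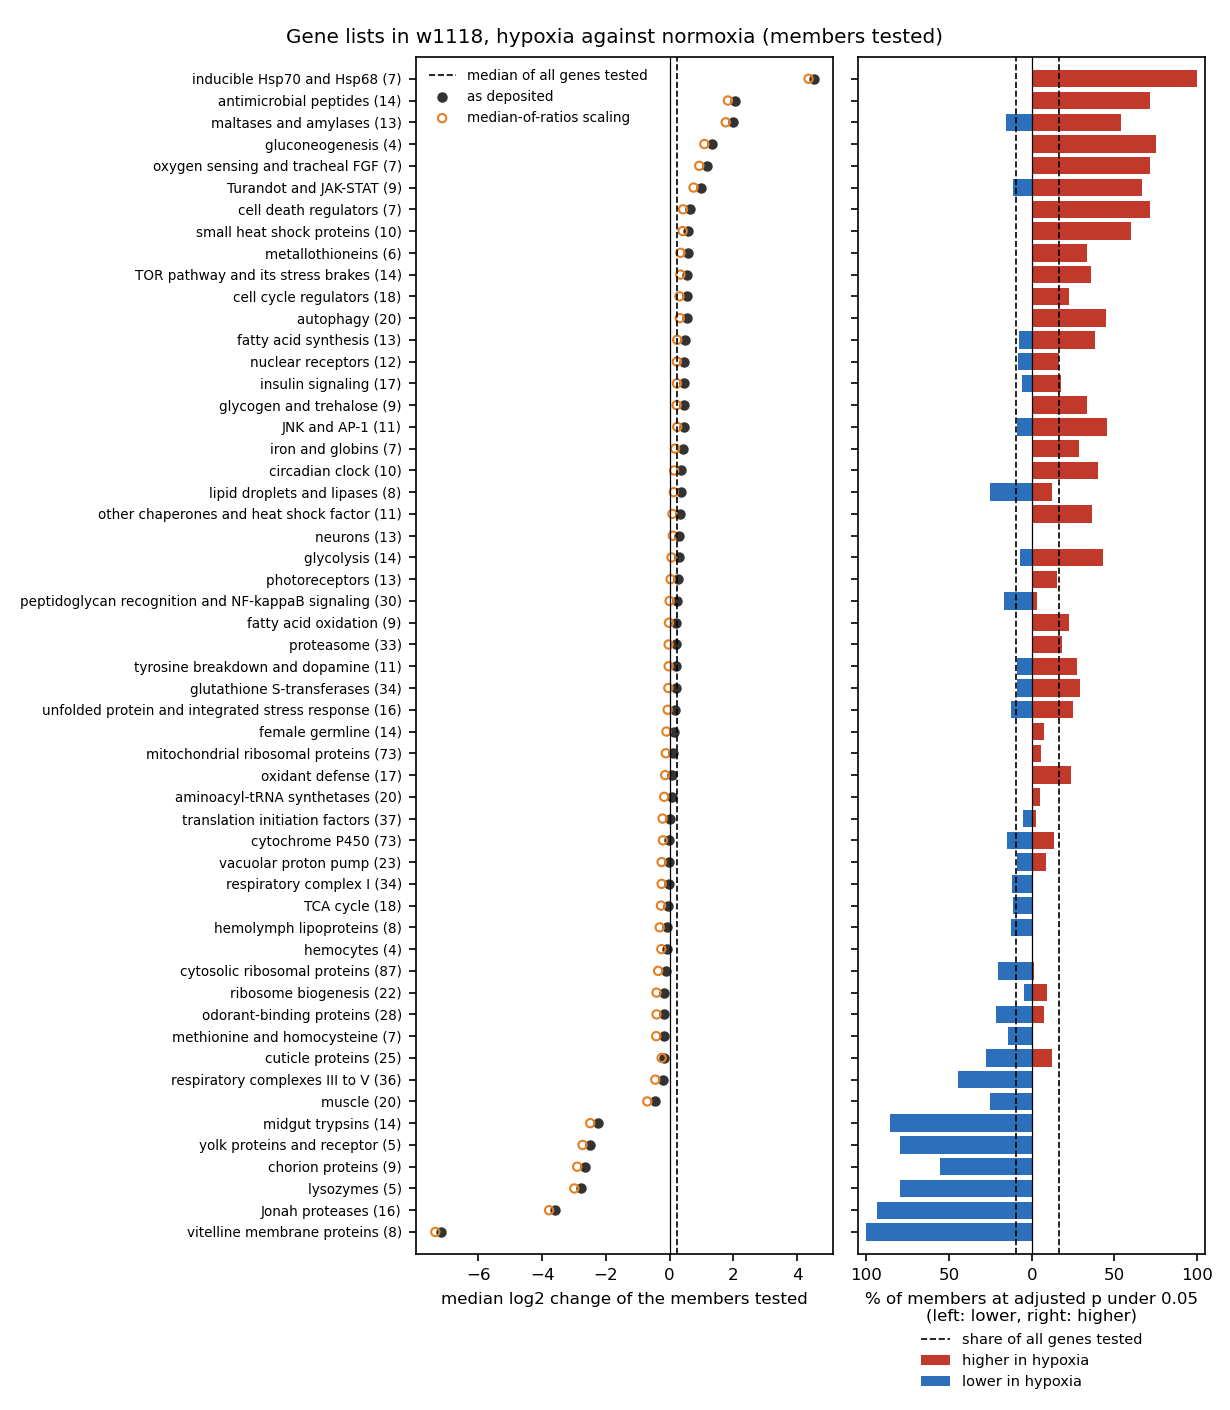
Gene lists in *w1118*, each with its number of members tested in parentheses and ordered by median log2 change. The left panel gives the median as deposited (black) and after median-of-ratios scaling (orange) with the median of all genes at 0.22 (dashed), and the right panel gives the percentage of members higher (red) or lower (blue) at an adjusted p under 0.05 beside 16.2% and 9.84% over all genes (dashed). The Hsp70 genes are at the top at 4.53 and the vitelline membrane genes at the bottom at −7.17.

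The change in *w1118* was tested against that in *foxo* mutants. This test was passed by 159 genes (1.55%) with the higher change in *w1118* and by 110 (1.07%) with the higher change in the mutant (limma, adjusted p under 0.05). Beside *Ddc* and the maltases, the falls of *thetaTry* (difference −2.27, adjusted p = 0.0085) and of the yolk gene *Yp2* (−2.02, adjusted p = 0.0113) were larger in *w1118*. *Hsp23* rose less in *w1118* than in the mutant, by 3.53 against 6.11 on the log2 scale (adjusted p = 0.000291), and its normoxic mean was 17.6 TPM in *w1118* and 2.82 TPM in the mutant. For the genes most often used as signs of low oxygen the genotypes were not told apart. The difference was −0.52 for *ImpL3* (adjusted p = 0.56) and −0.32 for *bnl* (adjusted p = 0.761).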

How the data were processed

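RNA of whole *w1118* and *foxo* mutant females was measured in 15 poly-A libraries made by the authors with a directional kit, each from 5 flies. The submitters' processing notes name kallisto, sleuth and the dm6 build, with no versions, and kallisto's strand setting is not given. Deposited TPM are per transcript, and 34111 transcripts were summed to 17031 genes. Of 34111 transcripts 138 have no value. Names and spans come from RefSeq for 99.3% of transcripts. Library totals in *w1118* were 998679.4 to 998920.5 TPM. The authors' tables of regulated genes (p-values, q-values and fold changes of their own comparisons) were not used.

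Genes reaching a mean of 1 TPM in any of the 4 groups were fitted as log2(TPM + 1) by limma 3.58.1 (R 4.3.3), with a variance trend and no covariate, and adjusted by Benjamini-Hochberg over all genes. A call needs an adjusted p under 0.05 and over 1.5-fold, and list members are counted at the adjusted p. Fold changes are on the log2(TPM + 1) scale, which understates those of low genes. The labels name separate samples but no separate cultures, so p-values measure the spread between these samples. On simulated data of 10288 genes made for this comparison, 59% of genes changed 2-fold and 96% of those changed 4-fold were recovered. The changed genes, 100 of each size, were drawn from the better expressed genes, so recovery at low levels is not known. The simulated noise was normal and independent between genes, with no shift of a whole library.

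The 55 gene lists and the named genes were chosen with earlier results of these data known. Genes were named by rule: the 15 largest called changes per direction at 10 TPM or more without overlap, the 2 members of each list with the smallest p, its 2 most abundant members, and genes the study's text names for *w1118*. Of the 221 genes so named, the text gives 97, picked among them with their values in view. Exceptions of a list and the genes of the closing section outside this rule were chosen after their values were seen. The chorion list was trimmed of genes that matched by symbol alone. Promoter motifs were not analysed here. Residuals of same-numbered *w1118* libraries correlated at 0.142, 0.374 and 0.177, and those of differently numbered libraries at −0.284 to 0.161. All same-numbered pairs being over 0.1, the numbers were taken to pair normoxia with hypoxia, and a blocked fit was run, in which hypoxia 1 has no partner. The pairing is an assumption. The labels do not state it, and the value of 0.161 for differently numbered libraries is above that of 0.142 for a same-numbered pair. Other alternatives were filters, pseudocounts, scalings, a transcript-length covariate, only *w1118* libraries, other fold cutoffs and leaving out each library.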

Additional observations from a re-analysis of the deposited data

Results flagged for a closer look

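In each of 8 named genes 1 of the 4 hypoxia libraries of *w1118* lay far from the other 3. The gap to the nearest library, as a share of the whole range, was 0.875 for *fbp*, 0.928 for *LysX*, 0.843 for *Vm26Aa*, 0.871 for *Vm32E*, 0.888 for *Vm26Ac*, 0.856 for *Cp15*, 0.85 for *DptA* and 0.983 for *Calr*. Chance alone sets about 1 in 20 groups apart in this way, and 109 genes were looked at.

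For 28 of the 109 named genes the log2 change in *w1118* minus that in *foxo* mutants passed the limma test of that difference itself (adjusted p under 0.05). It was positive for *CG10924* (2.70), *fbp* (1.53), *Mal-B1* (3.43), *Mal-B2* (2.76), *tobi* (3.32), *Desat1* (1.17), *AcCoAS* (1.53), *TotM* (2.90), *Thor* (1.59), *Ilp6* (1.51), *Atg18b* (1.22), *Dro* (1.96) and *Ddc* (3.44). It was negative for *alphaTry* (−1.16), *thetaTry* (−2.27), *Jon25Bi* (−1.53), *Jon25Bii* (−2.43), *LysD* (−2.46), *Yp2* (−2.02), *Yp3* (−1.15), *Hsp68* (−1.12), *Hsp23* (−2.58), *GstD2* (−1.50), *Mtk* (−2.88), *TpnC47D* (−1.17), *Cpr49Ab* (−2.22), *Hex-C* (−1.26) and *Nplp2* (−1.35). The genes that passed it in all 23 alternatives were *CG10924*, *Mal-B1*, *Mal-B2*, *thetaTry*, *Yp2*, *Hsp23*, *Mtk*, *Ddc* and *Nplp2*, and the other 19 lost it in at least 1. Over all genes 1.55% passed with the higher change in *w1118* and 1.07% with the higher change in the mutant. Many named genes were picked for their change in *w1118*, which is part of the difference. Their count therefore does not show how often the genotypes differ.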

How the results depend on the processing

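The count of 1324 rises in *w1118* moved with the fold cutoff, the scaling and single libraries, and that of 899 falls with the length covariate. The rises numbered 767 with median-of-ratios scaling and 488 over 2-fold, and from 823 (without normoxia 2) to 2067 (without hypoxia 1) when each library was left out. The falls numbered 1409 with the transcript-length slope as a covariate, and from 728 to 979 without each library in turn. The other alternatives left both counts within 1.5 times. With the replicate number as a block, there were 1815 rises and 856 falls, and among the genes named it ended the call of *Calr*, made *foxo* itself (log2 change 0.66, limma adjusted p = 0.00733), *InR* and *Rel* pass, as leaving out hypoxia 1 did, and changed the call of a difference between the genotypes for *TotM*, which was lost. The calls of *Gapdh2*, *Eno*, *AcCoAS* and *Xbp1* were lost under median-of-ratios scaling, those of *Hex-C* and *Pepck* with the length covariate, and those of *Hex-C*, *Calr*, *Pdi*, *Pepck* and *h* without 1 or more of the libraries. *Pepck* also missed the threshold with no filter on low values. Median-of-ratios scaling, by its construction, moved the median log2 change of all genes from 0.22 to 0.013. With the length covariate the log2 change of *tgo* turned from 0.32 to −0.29 (limma adjusted p = 0.0473) and that of *osk* passed at −0.62. *CG30031* passed as a fall with that covariate, with median-of-ratios scaling and in the *w1118* libraries alone. Promoter motifs were not run. Of 55 lists, 14 kept both counts within 1.5 times without each library in turn. Of 28 named genes whose change differed between *w1118* and *foxo* mutants, 9 passed that test in all 23 alternatives. Read numbers are unknown, so no limit from depth can be given, and a block fit cannot use hypoxia 1. The test recovered 59% of simulated 2-fold changes among the better expressed genes, so a gene that did not pass is not shown to be unchanged.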

Other observations

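Replication-dependent histone genes rose in part, with every tested copy of *His3* and *His4* past the test. They were grouped after their values were seen, and their mRNAs mostly end in a stem-loop in place of a poly-A tail, so the values are those of histone RNA that entered poly-A libraries. The 23 copies of *His3* summed to 18.3, 24.5 and 19.4 TPM in normoxia and 717, 429.9, 481 and 380.4 TPM in hypoxia, a ratio of the means of 24.2, and all 23 passed the limma test. Every hypoxia library was above every normoxia library. The copies hold only 2 distinct sets of values, so they share reads and are not separate observations. The *His4* copies summed to 243, 273 and 221 TPM in normoxia and 1529, 1239, 1530 and 1347 TPM in hypoxia, a ratio of 5.75, and 14 of 14 tested copies rose. The *His3* and *His4* counts were the same without each *w1118* library in turn and with median-of-ratios scaling. Of *His2B* 19 of 23 tested copies rose (ratio 4.21), with 9 without normoxia 2, hypoxia 2 or hypoxia 3. Of *His2A* 17 of 17 rose (ratio 2.4), with 10 without any library but hypoxia 1. Of *His1* 10 of 21 rose and 11 did not pass (ratio 2.54), with 3 without normoxia 2, normoxia 4 or hypoxia 3. Distinct sets of values numbered 6 for *His4*, 7 for *His2B*, 4 for *His2A* and 11 for *His1*. The counts of copies in these families are therefore not counts of separate observations either. Each copy that passed is also counted among the 1666 genes higher in hypoxia. In *foxo* mutants the mean sum of *His3* was 14.3 TPM in normoxia and 558 TPM in hypoxia.

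Short immune-induced peptides, also chosen after their values were seen, rose beside the antimicrobial peptides. Of 14 Bomanin and Daisho genes, which are targets of the Toll pathway, 10 were higher in hypoxia, with a median log2 change of 1.23, and their sum was 1965 to 2463 TPM in normoxia and 6004 to 11626 TPM in hypoxia. The count was 7 to 12 without each library in turn and 7 with median-of-ratios scaling. *CG15068* (*BomS6*) was at 454, 283 and 434 TPM in normoxia and 2561, 2094, 1628 and 2117 TPM in hypoxia (log2 change 2.44, SE 0.246, limma adjusted p = 3.53e-06). *IM3* (*BomS3*) was at 222, 166 and 229 TPM in normoxia and 923, 1757, 750.3 and 2151 TPM in hypoxia (log2 change 2.64, SE 0.329, limma adjusted p = 2.96e-05). *CG16836* (*BomT2*) was at 74.7, 66.6 and 61.6 TPM in normoxia and 667, 674, 515 and 1093 TPM in hypoxia (log2 change 3.38, SE 0.234, limma adjusted p = 9.81e-08). Among falls outside the rule, the neuropeptide-like precursor gene *Nplp2* was at 5679.6, 3824 and 5351 TPM in normoxia and 435, 529, 366 and 551 TPM in hypoxia (log2 change −3.39, SE 0.18, limma adjusted p = 5.56e-09).

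Chromosome 4 was looked at after the calls per chromosome were seen. Of its 74 genes tested 0 were higher and 3 lower at an adjusted p under 0.05 with limma, 0 higher and 5 lower at an unadjusted p under 0.05, and the median log2 change was 0.01 beside 0.22 over all genes. By the stricter rule of a call, which also needs over 1.5-fold, rises made up 11.4% to 15.1% of the tested genes on each of 2L, 2R, 3L, 3R and X. On chromosome 4 they made up 0%. Called falls made up 7.63% to 9.44% on those arms and 2.7% on chromosome 4. With the replicate block 1 gene was higher and the median was 0.19, and with the transcript-length covariate 32 were lower. The median transcript length was 3160 bases on chromosome 4 and 1713 bases over all genes.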
